A study of Mus musculus with 6 samples.

Results

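The transcriptome of wild-type mature brown adipocytes was described from the 3 libraries labelled wild type, of 6 libraries in the series. They were chosen by that label alone, and the other 3 libraries entered no value given here. Each library was a pool of 3 mice on a C57BL/6 background, wild type and 6 weeks old. Minced adipose tissue had been digested with collagenase A, the floating fat-cell layer was taken after a spin, and mRNA libraries were made from its RNA with a KAPA kit. The labels name no treatment, housing temperature or sex, and no sorting by a marker. Differences between libraries are therefore differences between pools of mice and between library preparations, which cannot be told apart.

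Brown adipocytes burn fatty acids to make heat. Noradrenaline acts on beta-adrenergic receptors, protein kinase A then starts lipolysis, and the released fatty acids both feed mitochondrial oxidation and open uncoupling protein 1 (UCP1), which lets protons return to the mitochondrial matrix without making ATP. The cells are packed with mitochondria, whose small circular genome encodes core respiratory chain subunits, while the other subunits come from nuclear genes. Many nuclear genes of this machinery exist as paralogues, of which brown fat, heart and muscle often use one and other tissues another.

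The 3 libraries held 14239307, 12826639 and 12132987 counts, in the order wild type 1, 2 and 3. Of these, 8446025, 7780473 and 5548039 fell on nuclear genes. A nuclear gene is given here either as nuclear CPM, its counts per 1000000 nuclear counts, or as its per-kb level, its nuclear counts per kilobase of its main transcript, scaled so that each library sums to 1000000. Levels of different genes are compared on the per-kb scale, and ranks and sums in nuclear CPM are shares of counts, in which longer transcripts weigh more. In all 3 libraries 11301 nuclear genes had at least 10 counts, and 13068 had them in at least 1 library. The 5 marker genes of brown fat cells, Ucp1, Cidea, Adipoq, Fabp4 and Scd1, were all among the 25 highest nuclear genes on both scales.

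Whether the counts of near relatives can be told apart depends on their sequences, and 2 pairs are shown because they mark the extremes met here. Cox8a and Cox8b encode the common form and the heart, muscle and brown fat form of cytochrome oxidase subunit 8. Their coding sequences matched at 117 of 218 aligned positions (53.7%), and their longest shared run, in capitals, was 10 bases. All 50-base windows of both transcripts (100%) were found in no other annotated gene. The transcripts lie on GRCm38 at chr19:7215153-7217616 and chr7:140898945-140900446, both on the minus strand.
Cox8a: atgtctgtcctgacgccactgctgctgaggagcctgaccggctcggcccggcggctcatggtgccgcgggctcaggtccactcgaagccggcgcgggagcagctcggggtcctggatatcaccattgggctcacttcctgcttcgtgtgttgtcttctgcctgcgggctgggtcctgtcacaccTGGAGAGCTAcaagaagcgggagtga
Cox8b: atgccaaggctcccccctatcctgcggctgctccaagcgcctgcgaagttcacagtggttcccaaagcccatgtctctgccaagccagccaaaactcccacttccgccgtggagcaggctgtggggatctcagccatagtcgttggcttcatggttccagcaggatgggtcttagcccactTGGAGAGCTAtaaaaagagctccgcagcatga
The second pair is the mitochondrial gene mt-Co2 (chrM:7013-7696, plus strand) and Gm28661 (chr1:24614885-24615565, minus strand), an annotated gene within a copy of mitochondrial DNA on chromosome 1. The 681 bases of Gm28661 were identical to mt-Co2, which has 684 (99.6%), and the first 180 bases, printed in lower case with no part marked, did not differ at any position.
mt-Co2: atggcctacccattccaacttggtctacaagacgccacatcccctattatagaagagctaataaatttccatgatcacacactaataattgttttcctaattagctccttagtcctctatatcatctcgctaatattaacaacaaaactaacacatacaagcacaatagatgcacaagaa
Gm28661: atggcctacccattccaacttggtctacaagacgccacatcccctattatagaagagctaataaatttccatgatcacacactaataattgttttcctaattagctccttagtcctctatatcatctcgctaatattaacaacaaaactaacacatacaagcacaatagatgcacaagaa

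Mitochondrially encoded genes accounted for 40.7%, 39.3% and 54.3% of all counts, a mean of 44.8% ± 8.26 (SD, n = 3). The exact 95% binomial intervals, which cover counting error only, were 40.66% to 40.711%, 39.315% to 39.368% and 54.245% to 54.301%. Wild type 3 stood above the other two by far more than counting error. Within the mitochondrial counts, the ribosomal RNA genes mt-Rnr1 and mt-Rnr2 took 25.8%, 32.9% and 17.9%, so the higher share of wild type 3 lay in the protein-coding genes. These took 30.2%, 26.4% and 44.6% of all counts, against 10.5%, 12.96% and 9.72% for the ribosomal RNA genes.

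mt-Cytb, which encodes cytochrome b of complex III, had 1528784, 1015497 and 1677154 counts. mt-Co1, the catalytic subunit of cytochrome oxidase, had 1390340, 1192182 and 1479306. With both in the same order over the libraries, wild type 3 was highest and wild type 2 lowest. mt-Nd1, a complex I subunit, held 38200, 42100 and 85670 CPM with all genes in the total (all-gene CPM), 2.24 times as much in wild type 3 as in wild type 1. mt-Nd6, the complex I subunit on the other strand, differed from these: it had 4858, 4656 and 3919 all-gene CPM, and wild type 3 was lowest.

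Of the 13 protein-coding mitochondrial genes, 6 were at or near 0. mt-Co2 had 7, 7 and 13 counts, mt-Atp6, an ATP synthase subunit, had 30, 19 and 42, and mt-Co3, a cytochrome oxidase subunit, had 63, 55 and 31. mt-Nd3 had 4, 6 and 5 counts, mt-Atp8 had 1, 1 and 2, and mt-Nd4l had none. The other 7 had between 40050 and 1677154 counts. These 6 genes follow one another along the mitochondrial genome, and its copy on chromosome 1 covers that stretch.

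Each gene's main transcript was divided into all its windows of 50 bases, and the share of windows found in no other annotated gene was counted. That share was under 5% for 5 of the 6: mt-Co2 had no such window, mt-Co3 had 0.136%, mt-Atp6 0.475%, mt-Nd4l 1.21% and mt-Nd3 2.01%. mt-Atp8 was the exception, with 100% of its windows in no other gene. Among the 7 genes with high counts, mt-Nd4 had the lowest share, 37.8%, and mt-Co1 had 48.9%. How reads with several matches were treated is not given in the sources used here, and its part in the low counts was not tested. No level is read from these 6 genes. The plot of the mitochondrial genes shows the 6 low genes side by side.

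**Figure D1:**
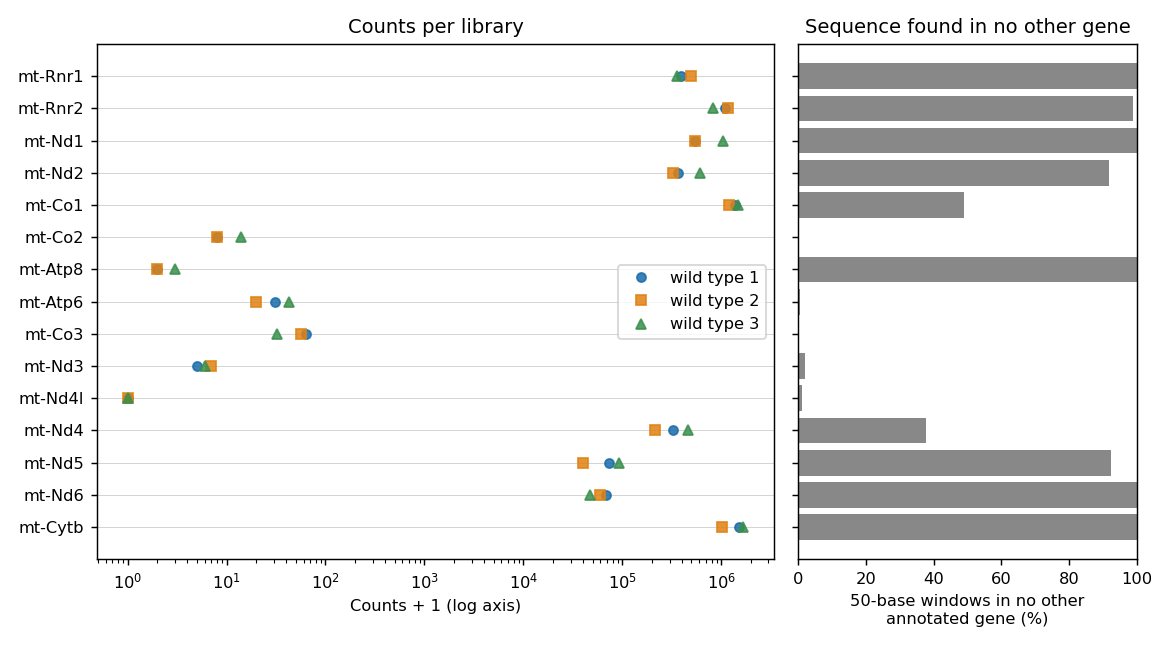
Counts plus 1 of the mitochondrial ribosomal RNA and protein-coding genes in each wild-type library (left, log axis, genes in genome order) and the percentage of each gene's 50-base windows found in no other annotated gene (right). Points are single libraries. The run from mt-Co2 to mt-Nd4l lies below 100 counts in every library, and all of its genes but mt-Atp8 have under 5% of windows to themselves.

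Counts of nuclear genes were spread over many genes. In wild type 1, 2 and 3, the highest 525, 435 and 480 nuclear genes held 50% of nuclear counts, and 4607, 4138 and 4499 genes held 90%. The 10 highest took 9.92%, 10.3% and 11.9%. Protein-coding genes took 98.6% to 98.7% of nuclear counts, long noncoding RNAs 0.513% to 0.581% and pseudogenes 0.404% to 0.526%. Fabp4 alone, the fatty acid binding protein of adipocytes, took 2.55%, 3.29% and 3.05%.

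Adipocyte genes and genes of oxidative phosphorylation stood at the top of the ranking by per-kb level, with 5 and 10 of the 25 highest genes on the core adipocyte and oxidative phosphorylation lists. Fabp4 led with 55990, 62990 and 66690, 61890 ± 5433 (SD, n = 3), and was first in each library. Car3, the cytosolic carbonic anhydrase III abundant in fat and muscle, followed with 13850, 12660 and 22030, and Cfd, the secreted complement factor D or adipsin, was next with 11220, 14980 and 13720. The order of Car3 and Cfd was not the same in all libraries: Cfd was the higher in wild type 2. Dbi, which binds acyl-CoA esters, came after them at 9367 ± 703.

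Of the 25 highest genes per kb, 10 encode subunits of the respiratory chain or of ATP synthase. Cox4i1, a cytochrome oxidase subunit, had a per-kb level of 8162, 11250 and 6892. Cox8b stood at 8137, 10510 and 5019, and Atp5b, the catalytic beta subunit of ATP synthase, at 7264, 7182 and 6007. The ratio of the highest to the lowest library was 2.09 for Cox8b, with wild type 2 highest, and 1.21 for Atp5b. Cox8b has a short transcript, and with the length trend between libraries removed its log2 deviations in nuclear CPM went from 0.04, 0.61 and -0.65 to 0.13, 0.19 and -0.32. Together the 84 listed nuclear genes of the respiratory chain and ATP synthase took 13.3%, 15.6% and 11.2% of the per-kb total, 13.4% ± 2.15 (SD, n = 3). The 26 core adipocyte genes took 10.7%, 11.4% and 12.97%.

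Ucp1 was 11th per kb, with levels of 5762, 6488 and 5824, 6025 ± 402 (SD, n = 3). Its nuclear CPM was 4799, 6193 and 4855, a coefficient of variation (CV, SD over mean) of 14.9% and the 8th highest. Adipoq, which encodes the adipocyte hormone adiponectin, was 9th on both scales, at 6425, 7593 and 7079 per kb. Cidea, a lipid droplet protein of brown fat, was 12th per kb with 5613, 5836 and 4057. Atp5b exceeded Ucp1, and Ucp1 exceeded Cidea, in each library, while Adipoq and Atp5b exchanged places between libraries.

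Scd1, the desaturase that makes oleate and palmitoleate, was 6th per kb but varied more than the other markers. Its nuclear CPM was 23370, 10140 and 27690, a CV of 44.8%, with wild type 2 lowest. Fabp4 had a CV of 12.7% on that scale, Adipoq of 15.8% and Cidea of 24.2%. Cd36, the fatty acid transporter, was 4th in nuclear CPM at 8185, 7638 and 8166 and was the steadiest of the 10 highest, with a CV of 3.89%.

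Between neighbours in the order, few gaps were kept. Of the 24 neighbouring pairs among the 25 highest genes per kb, 5 were in the same order in all 3 libraries: Fabp4 over Car3, Cfd over Dbi, Atp5b over Ucp1, Ucp1 over Cidea, and Cox6b1 over Ndufa4. The 25 highest by nuclear CPM also kept 5 of 24. The 2 lists shared 14 genes, and the 11 that only the per-kb list held were mostly short transcripts such as those of Cox6c, Uqcrh and Ndufb9. In the per-kb order, 16 of the 25 genes were in the top 25 of every library, and 32 genes were there in at least 1. Ranks beyond the first few thus describe these means and do not separate neighbours. The plot of the 25 highest genes shows where the libraries cross.

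**Figure D2:**
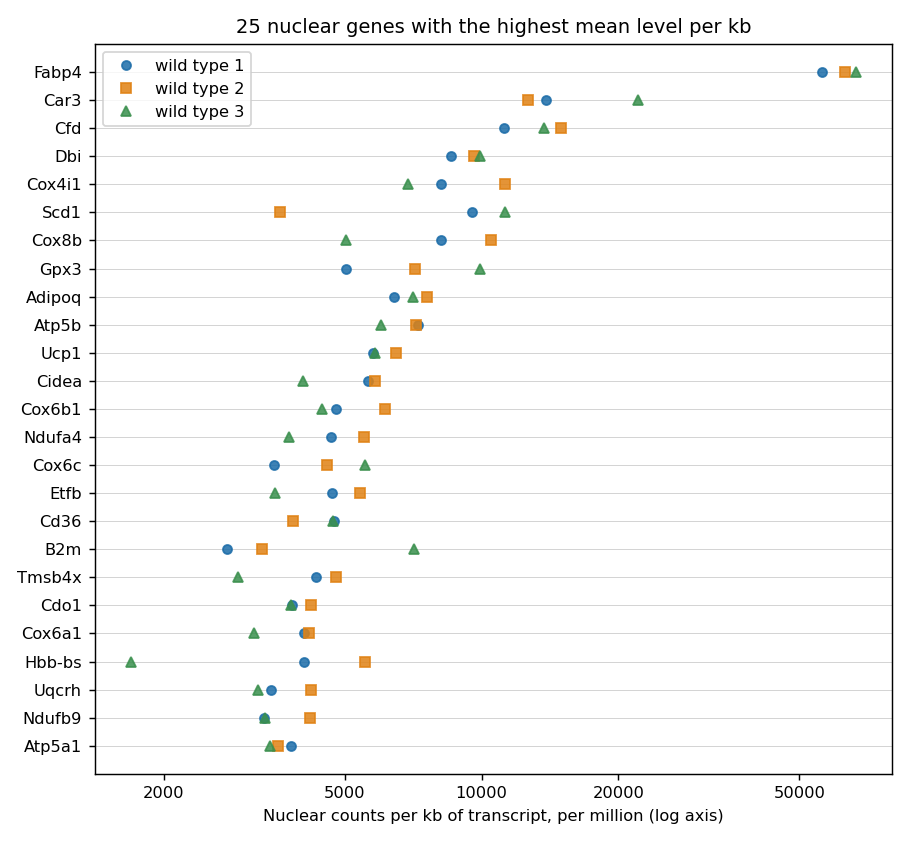
Per-kb level (nuclear counts per kilobase of transcript, scaled to 1000000; log axis) of the 25 nuclear genes with the highest mean, from the highest at the top, with 1 point per wild-type library. Fabp4 lies between 55990 and 66690 and apart from every other gene, while Scd1, B2m and Hbb-bs have 1 library far from the other two.

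The thermogenic programme was expressed, with large differences in level between its members. Of 34 listed genes, 32 had at least 10 counts in every library, and their summed nuclear CPM was 13650, 16310 and 11940. Ucp1, Cidea, Cox8b and Cox7a1, the brown-fat and muscle form of cytochrome oxidase subunit 7a, had the most counts among them. Adrb3, the beta-3 adrenergic receptor, had 162, 148.7 and 173.4 nuclear CPM, a CV of 7.66%. Pank1, which makes coenzyme A, had 402.8, 354.6 and 371.5, and Letmd1, a mitochondrial membrane protein, had 411.3, 444.8 and 358.9. In these 3 genes the libraries lay close together.

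Dio2, the enzyme that activates thyroid hormone, was 154.5, 57.5 and 52.5 nuclear CPM, with wild type 1 the highest and a ratio of 2.95 between the highest and lowest library. Ppargc1a, the coactivator of mitochondrial genes, was 94.8, 50.5 and 79.1. Elovl3, the fatty acid elongase usually counted among brown fat markers, was low at 3.08, 6.30 and 11.9 nuclear CPM, from 26, 49 and 66 counts. It ranked 7909th per kb. Prdm16, a regulator of brown fat identity, had 19.1, 12.7 and 16.9 nuclear CPM. Fgf21, a hormone gene, had 1, 1 and 0 counts, and Bmp8b had none, which allows at most 0.355, 0.386 and 0.541 nuclear CPM (3 counts per library). Lhx8 was not analysed here.

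Genes of fatty acid oxidation and of the citric acid cycle were high and varied little between libraries. The summed nuclear CPM of 20 oxidation genes was 25830, 27370 and 24030, and that of 25 citric acid cycle and pyruvate dehydrogenase genes was 34520, 34080 and 31580. Their members had median CVs of 14.7% and 13.9%, against 21.4% over all 9869 nuclear genes with a mean of at least 5 nuclear CPM. Genes of 1656 to 2518 bases, the range that holds both lists' median lengths, had a median CV of 16.6%, and genes above 1000 nuclear CPM one of 18.8%. Acadm, the medium-chain acyl-CoA dehydrogenase, had 2818, 2841 and 2869 nuclear CPM and a CV of 0.913%. Sucla2, the ADP-forming subunit of succinyl-CoA ligase, had 3223, 3100 and 2735. Acadm was nearly level, while Sucla2 had a ratio of 1.18 between the highest and lowest library.

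Lipogenic genes were high but differed between libraries. Their summed nuclear CPM was 32740, 16870 and 36150, a CV of 36.0%, with wild type 2 lowest. Scd1 took most of the counts in this sum. Over all 9869 nuclear genes with a mean of at least 5 nuclear CPM, 46.6% were lowest in wild type 2 and 31.6% highest. Of the 22 lipogenic genes, 16 were lowest in wild type 2 and 2 were highest there. These 2 were Thrsp, a regulator of lipogenesis, with 2272, 2335 and 1968 nuclear CPM, and Taldo1, a pentose phosphate enzyme, with 776.5, 868.8 and 504.1. Fasn, fatty acid synthase, had 910.3, 250.4 and 874.9 nuclear CPM. Acaca, acetyl-CoA carboxylase 1, had 200.2, 32.7 and 157.5, and Acly, ATP citrate lyase, had 799, 333.3 and 805.5. Acaca had 47.4% of its windows to itself. In Scd1, Fasn, Acaca and Acly, of which Fasn and Acly were named after their values were seen, wild type 2 was the lowest library. These transcripts are long, from 4393 to 10050 bases, and wild type 2 was low in long transcripts generally, as described with the spread between libraries. After a fitted length trend was removed from each library, the log2 deviation of wild type 2 from the mean of the libraries was -0.58, -0.68 and -1.09 for Scd1, Fasn and Acaca, still the lowest of the libraries. Before removal it was -0.88, -1.22 and -1.62. Over the 22 lipogenic genes the median deviation of wild type 2 went from -0.33 to -0.20. After removal, 13 of the 22 were lowest in wild type 2, and the share over all genes is not given here.

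Sums of triglyceride synthesis and lipolysis genes differed less than that of the lipogenic genes, but single members varied. For 18 synthesis genes the sums were 10080, 8124 and 10730 nuclear CPM, and for 11 lipolysis genes 7232, 6992 and 7324. The median CV of the lipolysis genes, 22.9%, was close to the 21.4% of all genes. Pck1, the enzyme that feeds glyceroneogenesis, had 2722, 1846 and 3410, and Dgat2, which adds the last acyl chain to diglyceride, had 1330, 1480 and 1378. Among the lipases, Ces1d, a carboxylesterase, had per-kb levels of 2210, 1829 and 1499, and Pnpla2, adipose triglyceride lipase, had 1558, 1444 and 2410. Which of the pair was higher changed between libraries. Lipe, hormone-sensitive lipase, was lower than both, at 360.4, 215.2 and 458.2 per kb. Hilpda, an inhibitor of Pnpla2, differed most, with 31.6, 53.1 and 12.1 nuclear CPM.

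Adipocyte hormones were present beside adiponectin. Lep, the gene of leptin, had 203.3, 102.3 and 96.6 nuclear CPM, and wild type 1 was the highest. Retn, the gene of resistin, had 265.5, 428.9 and 397.4, and Nrg4, a hormone gene of brown fat, had 174.4, 204.1 and 186.9. Nrg4 had the smallest spread of them, a CV of 7.91%. Pparg, the master regulator of adipocyte identity, had 486.3, 487.2 and 572.1.

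Within gene families, 1 paralogue usually led. Shares of a family were taken on the per-kb scale for 79 families with at least 30 counts in every library. The same gene led in all 3 libraries in 73 of them, with over 50% of the family in each library in 61 and over 90% in 21. In 57 families all members had at least 80% of their windows to themselves, and the counts there were 55, 46 and 16. Between the libraries a leader's share ranged over a median of 4.43 percentage points, and in 18 families over more than 10.

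Along the pathway of heat production, single paralogues led the uncoupling proteins and deiodinases, and the signalling steps were more mixed. Ucp1 held 98.6%, 99.2% and 97.3% of the uncoupling proteins, and Ucp3 and Ucp2, the forms known from muscle and immune tissue, held 1.32% ± 0.777 and 0.331% ± 0.21 (SD, n = 3). Adrb3 held 78.9%, 73.9% and 75.3% of the beta-adrenergic receptors. Adra1a led the alpha-adrenergic receptors with 86.8% ± 1.11. Downstream, Adcy6 led 10 adenylyl cyclases with 48.9% ± 2.27, Prkar2b led the regulatory subunits of protein kinase A with 77.3% ± 2.72, and Pde3b led the cAMP phosphodiesterases with 58.8% ± 1.8. Dio2 held 99.6%, 97.5% and 100% of the deiodinases.

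Cytochrome oxidase used the tissue-specific paralogue in some subunits and the common one in others. Cox8b held 80.7%, 84.1% and 79.7% of subunit 8, over Cox8a, the gene whose sequence is printed beside it. In per-kb level, Cox8b was 8137, 10510 and 5019, and Cox8a was 1950, 1992 and 1278. Cox8b was the higher gene in each library. Cox7a1 held 48.9%, 53.2% and 50.1% of subunit 7a and Cox7a2 43.7%, 38.3% and 37.8%. Cox7a2 led instead when the median transcript length or plain counts were used. Cox6a1 held over 97% of subunit 6a in each library, and Cox6a2, the form of heart and muscle, held 0.042%, 0.117% and 2.72%. Cox4i1 held 99.7% ± 0.133 of subunit 4.

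In fatty acid and lipid handling, several families came close to a single gene. Scd1 held 99.4% ± 0.144 of the stearoyl-CoA desaturases, Fabp4 98.5% ± 0.185 of the fatty acid binding proteins, Gk 99.9% ± 0.025 of the glycerol kinases and Aqp7 99.9% ± 0.111 of the aquaglyceroporins. Pck1, the cytosolic form, held 99.5% ± 0.227 of the phosphoenolpyruvate carboxykinases. Acsl1 held 89.2%, 89.4% and 93.3% of the long-chain acyl-CoA synthetases, and Dgat2 held 79.2%, 80.05% and 83.2% against Dgat1. Among lipid droplet coats no gene held the majority: Plin2 had 44.6% ± 0.787, Plin1 31.8% ± 4.3 and Plin5 14.3% ± 2.44. By plain counts Plin1 led. Acadl, at 36.4%, 40.6% and 46.9%, and Acadm, at 33.1%, 32.7% and 32.4%, shared the acyl-CoA dehydrogenases.

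In glucose uptake and phosphorylation, the insulin-regulated forms led. Slc2a4, the insulin-regulated transporter GLUT4, held 89.3%, 88.3% and 89.1% of 6 glucose transporters, and Slc2a1 held 4.75% ± 0.851. Hk2 held 89.5% ± 2.21 of the hexokinases, and Pdk4 held 84.3% ± 3.23 of the pyruvate dehydrogenase kinases. Among transcription factors, Pparg held 90.6%, 95.5% and 93.8% of the PPARs, Esrra 86.0%, 92.6% and 78.8% of the estrogen-related receptors, and Thra 78.8%, 92.6% and 87.3% of the thyroid hormone receptors.

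In 6 families the leader was not the same in every library, and in 4 of these wild type 3 had the muscle form on top. Pgam2, phosphoglycerate mutase of muscle, held 18.0%, 23.0% and 87.0% of its family. Eno3, the muscle enolase, held 7.36%, 12.3% and 76.3%. Ckm, muscle creatine kinase, held 15.5%, 17.3% and 62.9%, and Atp2a1, the fast-muscle calcium pump, held 5.5%, 16.0% and 67.3%. Pgam1, Eno1, Ckb and Atp2a2, the last the calcium pump of heart, slow muscle and many other tissues, led in wild type 1 and 2. Pgam1, Eno1 and Ckb had 58.5%, 27.8% and 78.1% of their windows to themselves. The other 2 were the acetyl-CoA carboxylases, where Acacb held 42.8%, 71.9% and 43.9% against Acaca, and the pair of Mecom and Prdm16. Acaca had 47.4% of its windows to itself, and it led its family when the median transcript length was used. The plot of leading genes orders the families by the leader's mean share.

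**Figure D3:**
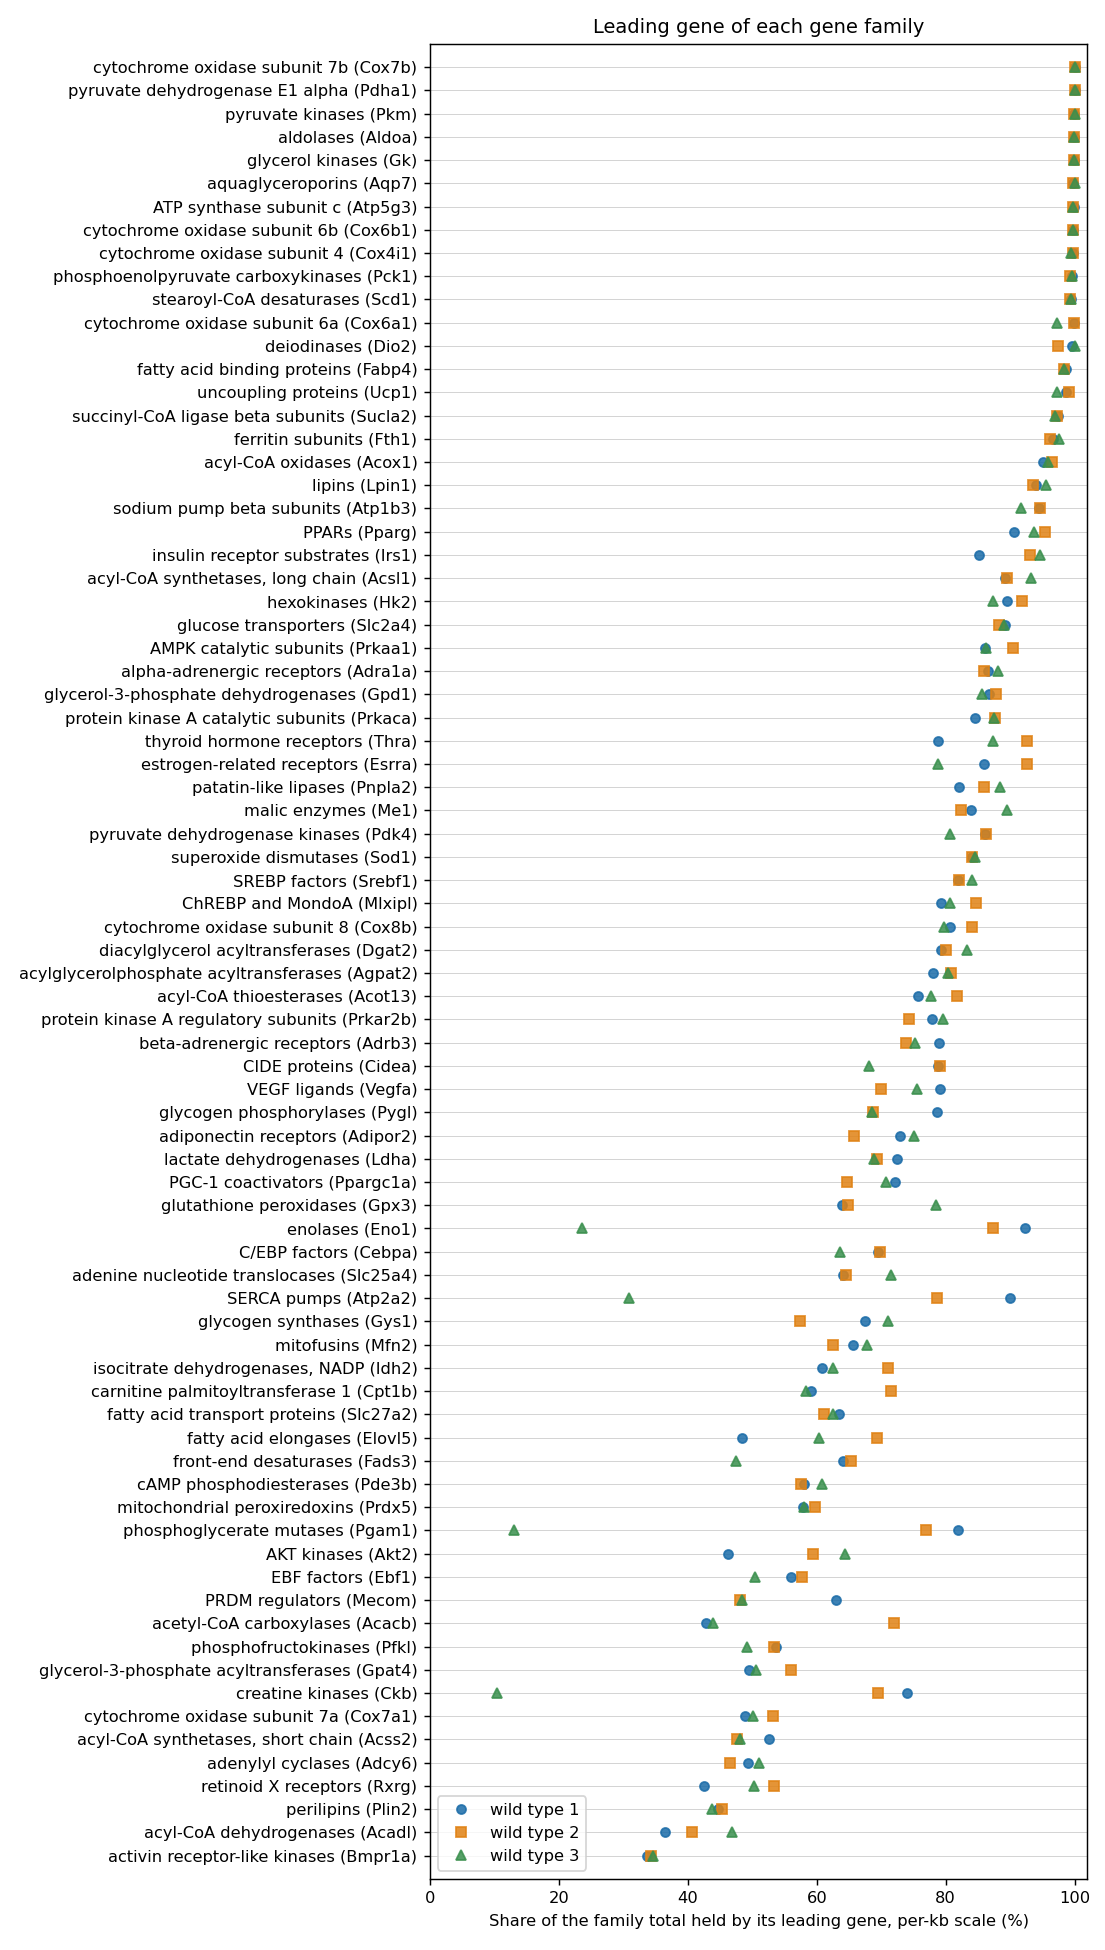
Share of each family's per-kb total held by its leading gene (named in brackets), for the families reported, ordered by the mean share, with 1 point per wild-type library. The leader holds over 90% in all libraries in 21 families, and the points of wild type 3 for the enolases, SERCA pumps, phosphoglycerate mutases and creatine kinases lie far to the left.

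Some textbook genes that share most of their sequence had low counts, but not all such genes did. Of 702 listed genes with a window share, 6 had under 20% of windows to themselves: Gapdh, Cpt1b, Ftl1, Atp5g2, Atp5l and Hba-a2. Gapdh, the glycolytic enzyme often used as a reference gene, had 23, 16 and 18 counts and 17.5% of windows to itself. Cpt1b, the muscle and brown fat form of carnitine palmitoyltransferase 1, had 156, 125 and 102 counts and 6.99%. Etfb, at 32.7%, nevertheless stood 16th per kb. The part of shared sequence in the low counts of Gapdh and Cpt1b was not tested. The share of Cpt1b in its family, 59.1%, 71.6% and 58.3%, is therefore uncertain.

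Besides adipocyte genes, markers of vessel and stromal cells were clear, those of most immune cells low, and those of skeletal muscle high in 1 library. In such bulk RNA, fewer cells of a type and less RNA per cell cannot be told apart. Core adipocyte genes summed to 72660, 81560 and 85680 nuclear CPM over 26 genes, all detected. Endothelial markers summed to 4155, 4148 and 3649 over 20 genes, 0.398% of nuclear counts in the mean. Single endothelial markers varied more than this sum, with a median CV of 30.3% against 21.4% over all genes. Of the 19 with a mean of at least 5 nuclear CPM, 9 had a ratio of at least 2 between libraries, against 20.2% of all genes. Aqp1, a water channel, had 1404, 1597 and 1103 nuclear CPM, and Gpihbp1, which holds lipoprotein lipase on capillaries, had 379, 565.5 and 474.8. Cdh5, the endothelial cadherin, had 155.6, 52.8 and 208.7, and wild type 2 was the lowest.

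Mural cell markers, those of pericytes and smooth muscle, summed to 3099, 2102 and 1959 nuclear CPM, but 1 gene made up most of it. Rgs5, a regulator of G-protein signalling, had 2403, 1541 and 1434. The pericyte markers Kcnj8 and Pdgfrb had 102.5, 104.2 and 45.8 and 36.4, 18.4 and 29.2. Per kb, Rgs5 stood at 828 ± 282, Kcnj8 at 61.5 ± 23.1 and Pdgfrb at 9.88 ± 3.74 (SD, n = 3). Stromal and preadipocyte markers summed to 3824, 3423 and 4108, led by Gsn, an actin-severing protein that adipocytes also express, at 1590, 1289 and 1629. Dcn, the matrix proteoglycan decorin, had 534.7, 589 and 601.8, and the progenitor receptor Pdgfra had 28.4, 13.9 and 16.8.

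Sums of blood cell markers were lowest in wild type 3 for myeloid and red cells, but not every member was lowest there. Macrophage markers summed to 577.7, 543.9 and 299.7 nuclear CPM, and Tyrobp, a signalling adaptor of myeloid cells, had 30.2, 36.5 and 7.75. Cd68 was instead highest in wild type 3, with log2 deviations of -0.10, 0.03 and 0.08 from the mean of the libraries. Mrc1 and the mast cell gene Kit were lowest in wild type 2, and C1qb in wild type 1. With the length trend removed, 9 of 13 macrophage markers were lowest in wild type 3. The share over all genes after removal is not given here. Neutrophil and mast cell markers summed to 242.7, 269.8 and 36.4, mainly from S100a9 with 113.3, 147.7 and 4.87 and S100a8 with 71.8, 78.0 and 3.42. Erythroid markers summed to 1690, 2599 and 740.3, nearly all globin RNA: Hbb-bs had 1302, 2031 and 541.8. The globin genes share sequence, and Hbb-bs had 34.2% of its windows to itself. The sum of lymphocyte markers did not follow this order, at 88.2, 70.7 and 90.7, but it rested on few genes. Of 19 markers, 4 had at least 10 counts in every library, and Cd74, Ighm, Ptprc and Igkc led the sum. Ptprc was lowest in wild type 3, and Cd74, Ighm and Igkc were highest there.

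Skeletal muscle markers summed to 187.9, 315.5 and 3707 nuclear CPM, a mean of 1403 and, without wild type 3, of 251.7. Each of the 23 markers, with no filter on level, had its highest nuclear CPM in wild type 3, and 16 had at least 10 counts in every library. Of all genes with a mean of at least 5 nuclear CPM, 33.4% were highest in wild type 3. Acta1, skeletal alpha-actin, had 24.9, 55.4 and 400.7. Tnnt3, a fast troponin T, had 7.93, 11.3 and 348.4, and Myh4, the fast myosin heavy chain, had 0.71, 2.70 and 153.6. Myh7, the slow myosin heavy chain, had 0, 0 and 68 counts. Fast and slow fibre genes were thus both present in wild type 3, and most were detected at low counts in wild type 1 and 2.

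Other lists were low or flat. Schwann cell and nerve markers summed to 406.3, 250 and 363 nuclear CPM, with Th, Dbh and Npy, genes of sympathetic neurons, at 0. Mesothelial and epithelial markers summed to 3.08, 2.70 and 6.13, with Upk3b, Krt8, Krt5 and Krt14 at 0. Proliferation markers summed to 70.8, 84.1 and 53.9, mostly Pcna and Tyms. White adipocyte-enriched genes summed to 1450, 1592 and 1762, with Retn and Dpt leading and Hoxc10 and Tcf21 at 0. Dpt is also on the stromal and preadipocyte list, so its counts enter both sums and do not mark white adipocytes alone. A count of 0 allows up to 0.355, 0.386 and 0.541 nuclear CPM in the 3 libraries. Of genes that mark sex, 4 Y-linked genes had 111 to 2842 counts in each library and Xist had 0, 0 and 3.

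**Figure D4:**
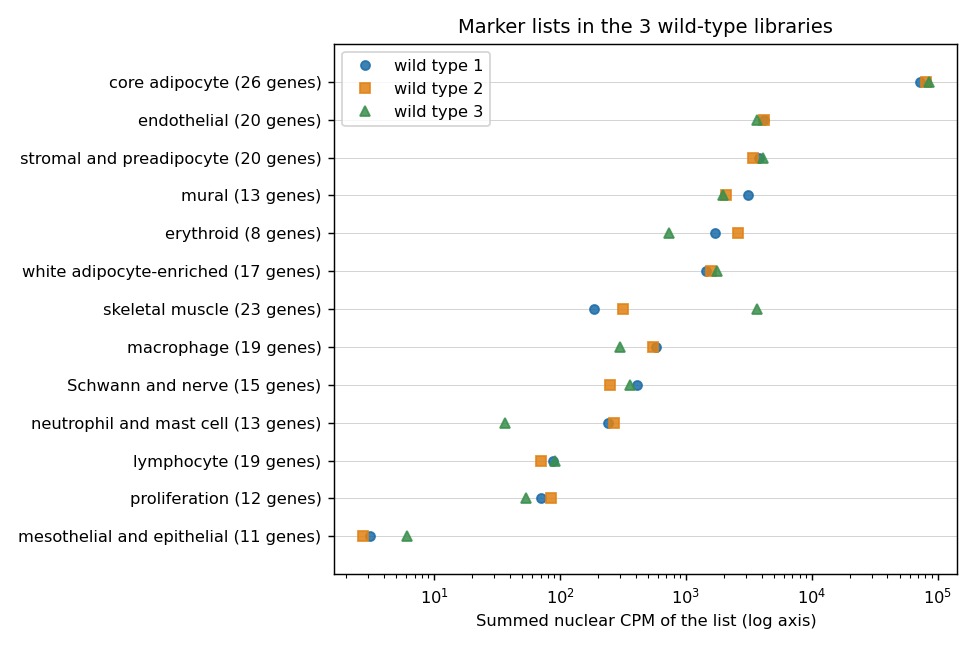
Summed nuclear CPM (log axis) of core adipocyte genes and of 12 marker lists, with 1 point per wild-type library and the number of listed genes in brackets. Adipocyte, endothelial and stromal sums lie close together, though single endothelial markers differ more between libraries. Skeletal muscle is 3707 in wild type 3 against 187.9 and 315.5, and neutrophil and mast cell markers are 36.4 there against 242.7 and 269.8.

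Acute response genes, which digestion and handling of tissue can induce, were expressed in all libraries. The 29 listed genes summed to 4900, 4615 and 4566 nuclear CPM. Fos, an immediate early transcription factor, had 529, 428.3 and 543.1, and Btg2, an antiproliferative early gene, had 624.8, 797.8 and 428.6. No undigested tissue was measured, so the part of digestion was not tested. Circadian clock genes summed to 1044, 717.3 and 1206, and Nr1d1, the clock repressor REV-ERB alpha, had 66.3, 53.7 and 241. Wild type 3 was the highest library for 9 of the 16 clock genes with a mean of at least 5 nuclear CPM, against 33.4% of all genes at that level. With the fitted length trend removed, wild type 3 was highest for 9 of the 16, and wild type 2 was lowest for 12. Before removal, 46.6% of all genes at that level were lowest in wild type 2. The shares over all genes after removal are not given here. The time of collection is not in the labels.

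Between the 3 libraries the spread of single genes was several times the counting error. Over the 9869 genes with a mean of at least 5 nuclear CPM, the median CV was 21.4%, against 6.57% from counting alone, and the biological coefficient of variation estimated by edgeR was 29.5%. A ratio of at least 2 between the highest and lowest library was seen in 1992 genes (20.2%). The spread fell with level and then stayed: the median CV was 27.8% for 1561 genes at 5 to 10 nuclear CPM, 19.6% at 30 to 100 and 18.8% for the 121 genes above 1000. Counting error in that last class was 0.912%, so depth did not limit it.

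Genes at both ends of the spread had different characters. The 15 genes with the largest CV at a mean of at least 10 nuclear CPM were genes high in wild type 3, and most reach that mean through this library, so their direction follows from the choice. They were Xirp2, Lmod2, Trdn, Neb, Myh4, Ttn, Myh1, Tnnt3, Myl2, Mybpc1, Casq1, Atp2a1, Tnnt1, Apobec2 and Tnni2, most of which encode proteins of the sarcomere or of muscle calcium handling. The 10 steadiest were Lyrm7, Lrrc39, Ctdnep1, Tob1, Mat2a, Supt3, Adsl, Pbx2, Alg11 and Rtn4. Tob1, an antiproliferative factor, had 510.4, 513 and 515.5 nuclear CPM, and Mat2a, which makes the methyl donor S-adenosylmethionine, had 496, 499.1 and 501.6. With 3 libraries a CV this small is itself imprecise, and all 10 lay below the error of their own counts.

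Removal of the mitochondrial counts from the denominator changed which library looked low. In all-gene CPM, 61.6% of these genes were lowest in wild type 3, the library with the highest mitochondrial share, and the median CV was 25.8%. In nuclear CPM, 32.9% were lowest there. Fabp4 shows the change: its all-gene CPM was 15150, 19980 and 13920, with wild type 3 lowest, and its nuclear CPM was 25540, 32930 and 30450, with wild type 1 lowest. For Ucp1, wild type 2 was the highest library on both scales.

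Wild type 2 was the library farthest from the other two for 44.7% of genes in nuclear CPM, and its deviations went with transcript length. For 9770 genes with a length, the log2 ratio of wild type 2 to the mean of the others fell by 0.36 per doubling of length, whereas those of wild type 1 and 3 rose by 0.19 and 0.18. By construction the 3 ratios of a gene cancel out. The rises of wild type 1 and 3 together therefore mirror the fall of wild type 2 and are no separate observation. Across genes, which are not independent replicates, Spearman's rho with length was -0.65, 0.47 and 0.34 for wild type 2, 1 and 3. In the fifth of genes with the shortest transcripts, of median length 1201 bases, the median log2 ratio of wild type 2 was 0.40, and in the fifth with the longest, of 6384 bases, it was -0.64. RNA quality was not recorded in the labels, and the source of the trend was not tested.

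**Figure D5:**
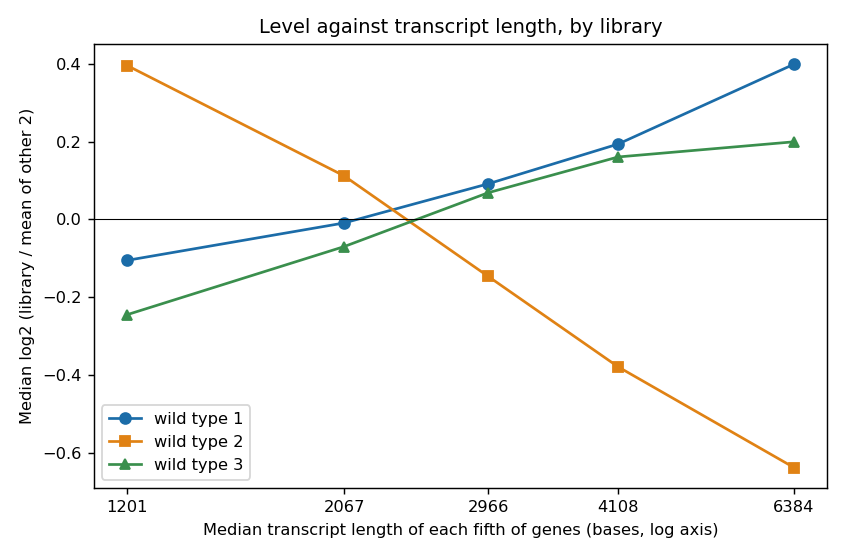
Median log2 ratio of each wild-type library to the mean of the other two, in nuclear CPM, for 5 equal groups of genes ordered by transcript length (log axis, median length of each group in bases). Wild type 2 falls from 0.40 in the shortest group to -0.64 in the longest, while wild type 1 and 3 rise. The ratios of a gene cancel out over the libraries, so these rises are the counterpart of that fall.

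The trend touched gene groups of short or long transcripts. Over all 9869 genes, 31.6% were highest in wild type 2 before removal of the trend. Of 37 nuclear complex I genes, whose median transcript length was 908 bases, 33 were highest in wild type 2, and their sums were 19900, 25920 and 17610 nuclear CPM. With the fitted length trend removed, 12, 13 and 12 of them were highest in wild type 1, 2 and 3. For complex IV the 15 genes split 4, 6 and 5 after removal, against 0, 11 and 4 before. For ATP synthase, 8 of 14 genes were highest in wild type 2 after removal and 12 before. For complexes II and III these numbers were 9 and 12 of 14. The share of all genes highest in each library after removal is not given here. The share of all genes with a ratio of at least 2 between libraries fell from 20.2% to 10.1%.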

How the data were processed

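Per the labels' protocols and the submitters' processing notes, reads were aligned to mm9 with STAR 2.5.4b. The authors deposited raw counts, whole numbers per Ensembl gene over 37620 identifiers, with no normalization. Not given in the sources used here are the counting program, the annotation release, the strand setting and how reads that match several genes were handled. Reads of overlapping genes on opposite strands and of near-identical copies therefore cannot be told apart.

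From those counts, CPM was computed with all genes and again without the 37 mitochondrial-genome genes (nuclear CPM). Symbols and lengths came by Ensembl identifier from GENCODE M21 on GRCm38; 32897 identifiers matched, and the rest held 0.18% of counts. Positions are those of GRCm38, not of the files' build, and served only to place the sequences printed, which were read from the GENCODE transcripts by name. Length was that of the APPRIS principal transcript, or of the longest where none was tagged. Window sharing was counted over all 50-base windows of a transcript against all transcripts of other genes on both strands. The cause of any low count was not inferred from it.

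Spread was described by the CV, and by the biological coefficient of variation from edgeR 4.0.16 (R 4.3.3, intercept only), for genes with a mean of at least 5 nuclear CPM. Log2 values used nuclear CPM plus 0.5. The length trend was removed by a cubic fit on log2 length in each library. DESeq2 1.42.0 gave an alternative scaling and dispersion. There was 1 group of 3 libraries, so no test was made, and the mean ± SD measures only the spread between these pools, which may be technical. No pair of libraries held identical counts.

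Members, lists and families were chosen with earlier results of these data known. The genes named are the 5 markers; the 25 highest by nuclear CPM and by per-kb level; the first and second gene of each family; the 4 highest of each list and any with a ratio of at least 4 between libraries; the 15 with the largest and 10 with the smallest CV at a mean of at least 10 nuclear CPM, leaving out predicted-gene names and pseudogenes; and the protein-coding mitochondrial genes. Further list members, among them Fasn, Acly, Elovl3, Dio2, Lep, Nrg4, Cdh5, Pdgfra, Pdgfrb, Kcnj8, Myh7, Gapdh and Xist, were chosen after their values were seen. A few genes that the rule names, and 1 family, are not reported here. Alternatives were other transcript lengths, denominators, scalings and filters, and each library left out in turn. Removal of the length trend and the restriction to families with unshared sequence were added after seeing the data.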

Additional observations from a re-analysis of the deposited data

How the results depend on the processing

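Of 126 alternative values, 103 stayed and 23 moved. The mitochondrial share, the place of Ucp1 and the marker sums were judged by the spread between libraries. Numbers of genes or families were judged by a limit of 1.5 times. So were the CV, the share of genes with a ratio of at least 2 and the biological coefficient of variation. With 1 library left out, the mean of the rest always lies within the spread between libraries. Such alternatives for the mitochondrial share and the marker sums therefore could not move. Counting only protein-coding genes, the mitochondrial share was 33.7% against 44.8%. The per-kb place of Ucp1, 11 in the report, was 30 with the median transcript length, 8 with the union of exons, 20 with mitochondrial genes in the ranking, and 10 to 11 with each library left out. Of the 25 highest genes per kb, 14 stayed with the median transcript length and 16 with mitochondrial genes in the ranking. With all genes in the denominator, the core adipocyte sum was 43920 CPM against 79970 and the endothelial sum 2216 against 3984. The skeletal muscle sum, 1403, was 251.7 without wild type 3, which this rule still counts as within the spread. The families with 1 leading gene numbered 68 by plain counts and 69 to 77 under the other alternatives over 79 families, and the leader of 9 families changed with the median transcript length. A gene that leads its family in all libraries also leads in any part of them. With a library left out, that number therefore could not fall. The median CV of 21.4% was 34.0% without a filter on low values and 13.9% to 21.6% with each library left out, lowest without wild type 2. The share of genes with a ratio of at least 2, 20.2%, was 49.1% without the filter, 10.1% with the length trend removed, and 6.03% to 14.1% with each library left out. A gene's ratio cannot rise when a library is left out, so the lower shares there are largely fixed by construction. No paired analysis was possible because only 1 group was described and no test was made. The counting error of genes under 10 nuclear CPM was 13.8%, so small differences there were not detectable at this depth.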

Other observations

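Among interferon-stimulated genes, which respond to viral and other immune signals, 19 of 21 had at least 10 counts in every library. Their sums were 965.7, 680.4 and 827.9 nuclear CPM in wild type 1, 2 and 3. Of the 19 with a mean of at least 5 nuclear CPM, 13 were highest in wild type 1, against 35.0% of all genes at that level. Rsad2, the antiviral protein viperin, had 102.9, 61.1 and 93.2 nuclear CPM, and wild type 2 was its lowest library. With the length trend removed, 14 of the 19 genes were highest in wild type 1, and the share over all genes after removal is not given here.

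Chaperones of the cytosol and endoplasmic reticulum were also abundant. The 19 listed genes summed to 5271, 4232 and 5057 nuclear CPM. Hsp90ab1, a constitutive cytosolic chaperone, had 988.2, 528.1 and 968.8, and Hspa5, the chaperone BiP of the endoplasmic reticulum, had 665, 449.7 and 457.5.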
